A study of Rattus norvegicus with 14 samples.

Results

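Genes that bring iron into a cell, store it, export it or sense it were followed in colonocytes, the epithelial cells of the colon, of rats on a high-protein diet (HPD) or, as the control, a normal-protein diet (NPD). The genes were chosen by name: Tfrc, Slc11a2, Slc40a1, Heph, Cybrd1, Fth1, Ftl1, Aco1, Ireb2 and Hfe. The array carried 9 of the 10 under that name, which made up 9 of its 26276 gene names and 15 of its 30367 probes. Ftl1 was the exception, and a probe named Ftl, the older symbol of the same gene, is described with the ferritins as an addition made after the data were seen.

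The animals were male Wistar rats aged 5 to 6 weeks on arrival. They had 1 week of standard chow and then 15 days on 1 of 2 isocaloric diets, in which whole milk protein gave 14% (NPD) or 55% (HPD) of the energy. Both diets held the same amount of mineral mixture, and their measured iron content is not given in the sources used here. Colonocytes detached from the colon with EDTA gave 1 single-colour array per rat, with 7 NPD and 7 HPD arrays after the study had removed 1 outlier from each group of 8.

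Dietary iron reaches the epithelium in the gut lumen and is reduced by Cybrd1 (duodenal cytochrome b) before Slc11a2 (divalent metal transporter DMT1) carries it into the cell. Iron bound to transferrin in the blood enters instead through Tfrc, the transferrin receptor, which binds Hfe. Ferritin, made of heavy (Fth1) and light (Ftl1) chains, stores iron in the cytosol, and Slc40a1 (ferroportin) exports it at the basal side with the ferroxidase Heph (hephaestin). The iron regulatory proteins Aco1 (IRP1) and Ireb2 (IRP2) bind stem-loops called iron-responsive elements, which stabilises the mRNA of Tfrc and blocks translation of the ferritins when iron is scarce. An array measures only the mRNA.

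The array read these genes at different places along their transcripts, and some results below differ between probes of a gene, so the stretches concerned are shown. Probes are called by the base of the transcript at which the array design says they start. Coordinates are those of the design, on rat build rn4, and each sequence runs 5′ to 3′ along the mRNA. The probe Tfrc 2139 (chr11:69978846-69980500, minus strand) is given whole, because its 60 bases of transcript span 1655 bases of genome and therefore cross a splice junction. Of the others the first 30 bases are given: Tfrc 4357 (chr11:69976628-69976687, minus strand), in the same transcript further towards its 3′ end, and 3 Slc11a2 probes (chr7:139094505-139094564 for 4271, chr7:139099082-139099141 for 1618 and chr7:139090121-139090180 for 1764, all on the minus strand). Slc11a2 1764 was designed on another transcript model than the other two.
Tfrc 2139: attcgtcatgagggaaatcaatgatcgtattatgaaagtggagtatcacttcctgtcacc
Tfrc 4357: actcacccaagttacatccaccagattatt
Slc11a2 4271: tgttagtgagcctctgacagcttgtgaact
Slc11a2 1618: ggcactgtatgtggtggctgcagtggttag
Slc11a2 1764: tgttagcaaatcccttagttcagaggtgaa

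Signals are log2 values centred on each array's median, so 0 is the middle probe of an array. Groups are given as mean ± SD (n = 7 rats each), and differences as HPD minus NPD. A probe was called changed at an adjusted p below 0.1 (limma, Benjamini-Hochberg over all 30367 probes). The median difference over all probes was 0.11, and 64.2% of probes lay higher in HPD, so a small positive difference was common. Over probes well above background on all arrays of a group the median was 0.05. It also varied with signal strength, from 0.24 in decile 1, the dimmest probes, to -0.04 in decile 7 and 0.13 in decile 10. The arrays were on 2 slides, with 4 NPD and 3 HPD on the first and 3 NPD and 4 HPD on the second. Exact permutation p-values of single probes are not adjusted, and 11.7% of all probes fell below 0.05 over all splits and 15.2% within slides. Any 2 arrays correlated at 0.970 to 0.992. The median background-subtracted signal was 179 ± 21.3 in NPD and 140 ± 12.9 in HPD (exact permutation test, two-sided, p = 0.0035), and its part in the differences was not tested. All 10 absorptive colonocyte markers on the array were well above background on every array.

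HPD upregulated 1 of the 9 iron genes, Tfrc, and it did so at 1 of its 2 probes. Across the array 17 probes were called (0.056%), all of them higher in HPD. That direction depended on the processing: 16 of the 20 probes called on median pixel signals lay higher, 3274 of 5142 after normexp background correction, and 11 of the 18 gene names called in the normalized table of the deposit. At an unadjusted limma p below 0.05 stood 6 of the 15 iron probes, 5 higher and 1 lower, against 11.4% of all probes, 5.86% of them higher and 5.55% lower. These probes belonged to Tfrc, Slc11a2, Fth1 and Hfe. The median difference over the 15 probes was 0.24.

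The transferrin receptor differed most firmly. At Tfrc 2139 the NPD rats ranged from 1.08 to 1.70 with a median of 1.42. The HPD rats ranged from 1.89 to 2.89 with a median of 2.56. All 7 HPD rats lay above every NPD rat, which was so of 0.129% of the 30330 probes measured on all arrays.

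The mean signal at Tfrc 2139 was 1.40 ± 0.25 in NPD and 2.43 ± 0.35 in HPD, a difference of 1.02 (SE 0.17, 95% interval 0.67 to 1.38, adjusted p = 0.041). This is a 2.03-fold higher signal. In the exact permutation test over 1716 splits of the rats p was 0.000583, the smallest these splits can give. The difference was 0.80 on the first slide and 1.20 on the second, and relative to the median of all probes it was 0.92. In colonocytes as in any bulk sample, more cells that make an mRNA and more of it per cell cannot be told apart.

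The call on Tfrc 2139 rested on all rats together. It was lost when NPD 2 (adjusted p = 0.134), NPD 4 (0.136), NPD 6 (0.105), NPD 7 (0.124), HPD 4 (0.143) or HPD 5 (0.142) was left out, while the difference stayed between 0.95 and 1.11 whichever rat was omitted. The mean of the 2 Tfrc probes differed by 0.90 (SE 0.17) and was not called (adjusted p = 0.135).

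The brighter probe, Tfrc 4357, read 5.18 to 6.09 in NPD with a median of 5.77. In HPD it read 5.89 to 7.10 with a median of 6.34. The groups overlapped, with 4 HPD rats above every NPD rat and all 7 above the NPD mean. The 3 NPD rats of the second slide were the lowest of all.

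The mean was 5.60 ± 0.38 in NPD and 6.38 ± 0.43 in HPD, a difference of 0.79 (SE 0.21, 95% interval 0.34 to 1.23) or 1.72-fold. Its adjusted p of 0.417 did not pass, and the exact permutation p was 0.0041 over all splits and 0.0041 within slides. It passed after normexp background correction (0.62, adjusted p = 0.094), alone or with slide as a block, settings that called 16.9% and 27.9% of all probes. The deposited table, which holds 1 value per gene name, gave Tfrc a difference of 0.69 (adjusted p = 0.156), and 0.74 (adjusted p = 0.043) with slide as a block, where 10.5% of all names were called. At Tfrc 4357 the difference was 0.47 on the first slide and 1.19 on the second. The difference between the 2 probes' responses, 0.24, was within the spread between rats (exact permutation test, p = 0.224), and after removal of diet and slide means their values correlated at 0.75 over the 14 arrays.

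**Figure D1:**
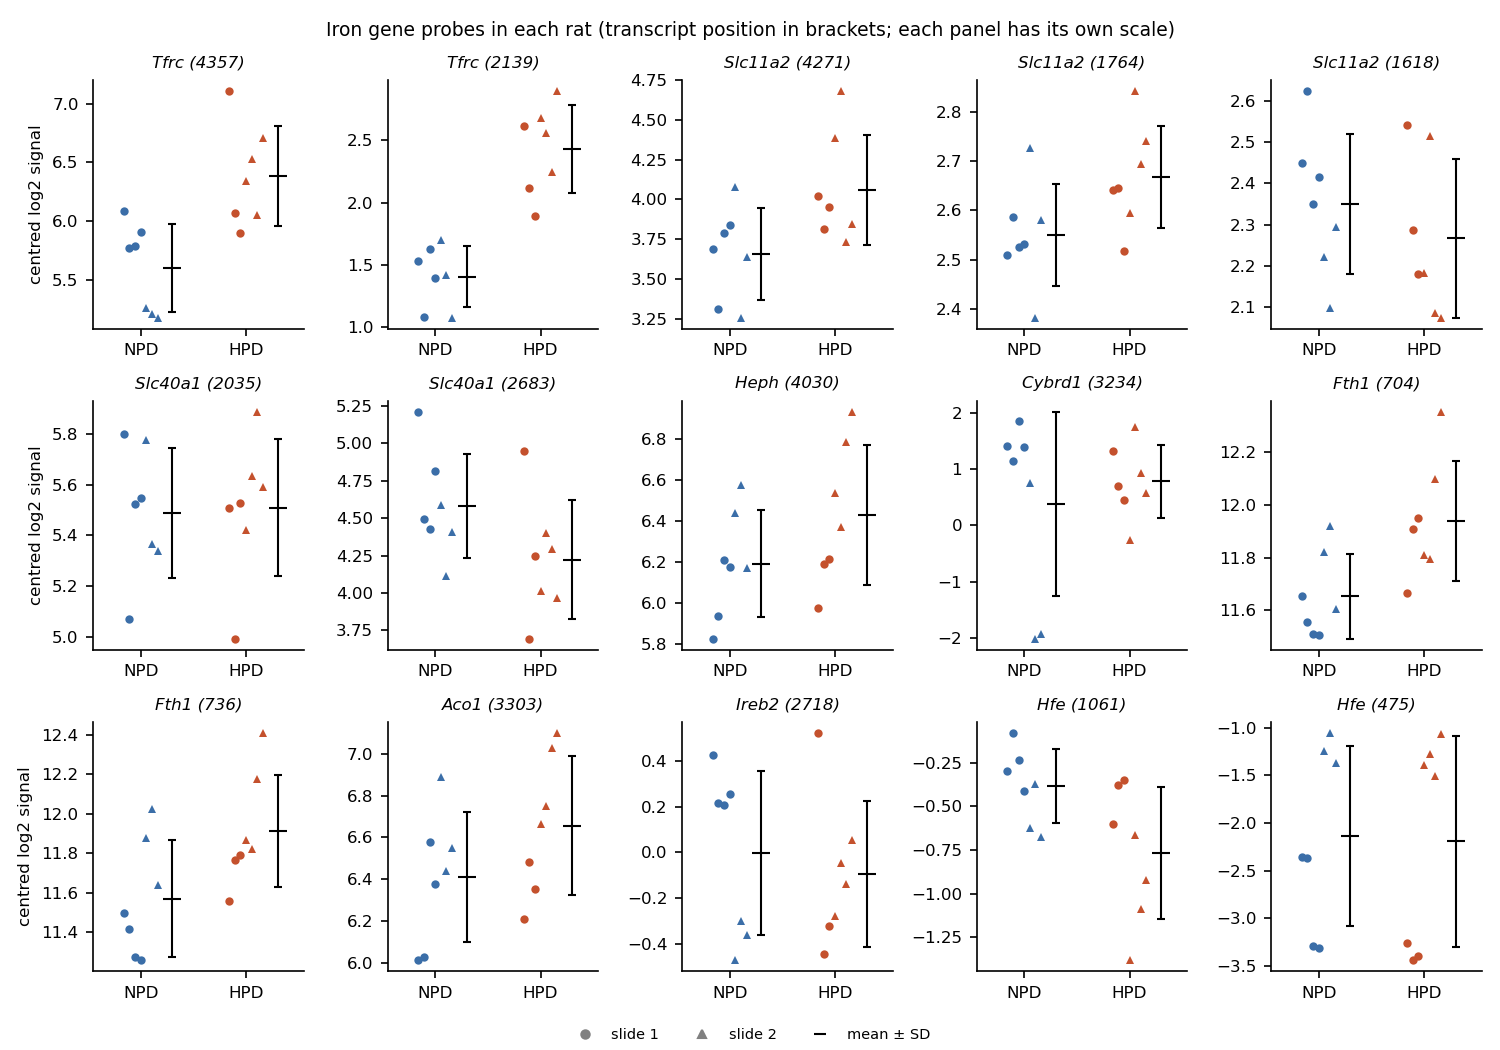
Centred log2 signal (y axis, own scale in each panel) of the 15 iron gene probes in each NPD (blue) and HPD (orange) rat; circles are arrays of the first slide, triangles of the second, and bars give mean ± SD of 7 rats. Only Tfrc 2139 separates the diets completely, with NPD at 1.08 to 1.70 and HPD at 1.89 to 2.89.

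Of the genes that take iron from the lumen, Slc11a2 had 3 probes with differences of unequal size. Slc11a2 4271 read 3.26 to 4.08 in NPD (median 3.69) and 3.73 to 4.68 in HPD (median 3.95), with overlapping groups. Its difference was 0.40 (SE 0.17, adjusted p = 0.422). The exact permutation p was 0.036 over all splits and 0.055 within slides.

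Slc11a2 1764 differed by 0.12 (95% interval -0.08 to 0.31) and Slc11a2 1618 by -0.08 (95% interval -0.33 to 0.16), neither of them called. Taken within each array, the signal of 4271 minus that of 1618 was 0.49 higher in HPD (exact permutation test, p = 0.013, within slides p = 0.019), and all 7 HPD rats lay above the NPD mean of this difference. The other 2 pairs of Slc11a2 probes differed by 0.29 (p = 0.088) and 0.20 (p = 0.066) in the same exact test. These p-values are not adjusted over the 3 pairs.

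Cybrd1, the luminal ferrireductase, was the most variable of the iron genes among NPD rats. It read -2.01 to 1.84 in NPD with a median of 1.14, and -0.26 to 1.74 in HPD with a median of 0.70. The spread in NPD came from 2 rats of the second slide, NPD 6 and NPD 7, which read -2.01 and -1.92 while the other 5 lay between 0.75 and 1.84. The difference of 0.41 (SE 0.60, 95% interval -0.87 to 1.68, adjusted p = 0.739) was -0.62 on the first slide and 1.80 on the second, so no direction was settled.

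The heavy chain of ferritin was measured by 2 probes that share 28 bases, shown in capitals below at the end of Fth1 704 (chr1:212432616-212432675) and the start of Fth1 736 (chr1:212432648-212432709), both on the plus strand.
Fth1 704: caGGCTGCCTTTATCTTTTCTATAAGTTGC
Fth1 736: GGCTGCCTTTATCTTTTCTATAAGTTGCac

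The probes are therefore not separate evidence, and after removal of diet and slide means they correlated at 0.98 over the arrays. RefSeq lists 6 Fth1 pseudogenes or like genes in the rat, whose transcripts such probes could also bind. Fth1 704 read 11.5 to 11.9 in NPD (median 11.6) and 11.7 to 12.4 in HPD (median 11.9). All 7 HPD rats lay above the NPD mean of 11.7 ± 0.16, and 3 lay above every NPD rat.

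The difference at Fth1 704 was 0.29 (SE 0.12, adjusted p = 0.423), with an exact permutation p of 0.017 over all splits and 0.021 within slides. At Fth1 736 it was 0.34 (SE 0.16, adjusted p = 0.438; exact permutation p = 0.048). Cyclic loess, which levels the arrays at each signal strength, left 0.08 at Fth1 704 and 0.14 at Fth1 736, and quantile normalization left 0.0054 and 0.088.

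The light chain probe, named Ftl on the array, read 11.3 to 12.0 in NPD (median 11.4) and 11.5 to 12.3 in HPD (median 11.7). Its difference was 0.25 (SE 0.17, adjusted p = 0.515; exact permutation p = 0.155) and turned to -0.04 after quantile normalization. Neither ferritin chain passed the test.

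For export, the 2 probes of Slc40a1 did not lie on the same side. Slc40a1 2035 read 5.07 to 5.80 in NPD (median 5.52) and 4.99 to 5.89 in HPD (median 5.53), and the ranges nearly coincided. Its difference was 0.02 (95% interval -0.30 to 0.34, adjusted p = 0.953) and turned negative under mean centring, quantile normalization and cyclic loess.

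Slc40a1 2683 read 4.11 to 5.21 in NPD (median 4.49) and 3.69 to 4.95 in HPD (median 4.25). It differed by -0.36 (SE 0.20, adjusted p = 0.471; exact permutation p = 0.102), and 6 of the 7 HPD rats fell below the mean of NPD. Heph, which oxidises the exported iron, read 5.83 to 6.58 in NPD and 5.97 to 6.93 in HPD. It differed by 0.24 (SE 0.16, 95% interval -0.11 to 0.59, adjusted p = 0.515).

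Among the regulators, the iron regulatory proteins did not pass the test. Aco1, measured by 10 spots per array, read 6.01 to 6.89 in NPD and 6.21 to 7.10 in HPD, a difference of 0.24 (95% interval -0.12 to 0.61, adjusted p = 0.515). Ireb2 read -0.47 to 0.43 in NPD and -0.45 to 0.52 in HPD, a difference of -0.09 (95% interval -0.47 to 0.29, adjusted p = 0.807). This difference was -0.36 on the first slide and 0.27 on the second. Among NPD rats Ireb2 lay 0.65 lower on the second slide than on the first, and Tfrc 4357 0.68 lower. The HPD rats showed no such drop. Among them Ireb2 read -0.45 to 0.52 on the first slide and -0.28 to 0.05 on the second. Tfrc 4357 read 5.89 to 7.10 in HPD on the first and 6.05 to 6.70 on the second.

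Hfe 1061 read -0.68 to -0.08 in NPD (median -0.37) and -1.38 to -0.35 in HPD (median -0.66). Its difference was -0.38 (SE 0.17, adjusted p = 0.425), with an exact permutation p of 0.038 over all splits and 0.013 within slides. Among HPD rats 5 of 7 lay below the NPD mean. The second Hfe probe, 475, was well above background on only 4 of 7 arrays in each group and followed the slide, at -3.43 to -2.36 on the first and -1.51 to -1.06 on the second, so it gave no usable comparison (difference -0.05, 95% interval -1.11 to 1.01).

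**Figure D2:**
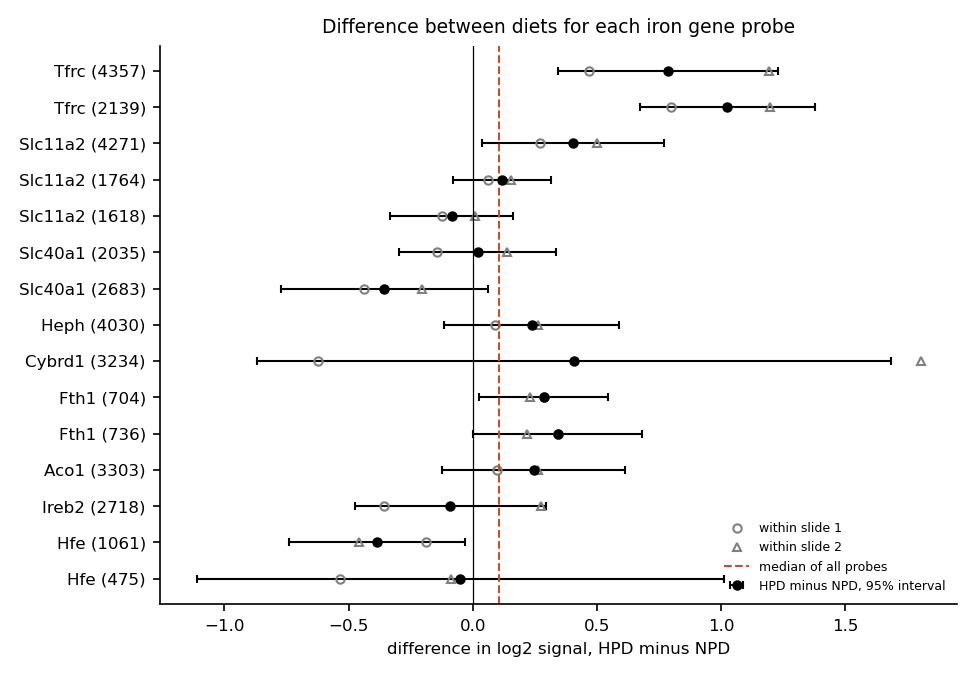
Difference in log2 signal, HPD minus NPD (x axis), of each iron gene probe (y axis, transcript position in brackets) with its 95% interval from limma (black) and the difference within the first slide (open circles) and second slide (open triangles); the dashed line is the median of all probes, 0.11. Both Tfrc intervals lie above that line. The differences within slides point in opposite directions for Cybrd1, Ireb2, Slc40a1 2035 and Slc11a2 1618.

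Whether Tfrc moved apart from each other iron gene was compared within each array, where a shift of the whole array cancels. Tfrc is the gene called above, and its difference of 0.79 at Tfrc 4357 enters every one of these tests. They are therefore not separate evidence that Tfrc changed, and Tfrc 4357 did not pass over all probes (limma, adjusted p = 0.417). The signal of Tfrc 4357 minus that of the brightest probe of each other gene was compared between diets in 8 exact permutation tests, which share the Tfrc probe, with p-values adjusted over the 8 (Benjamini-Hochberg). Tfrc minus Ireb2 was 5.60 ± 0.08 in NPD and 6.48 ± 0.19 in HPD. The groups did not overlap, and the difference of 0.88 had an adjusted p of 0.0047 in the exact test. The SD of 0.08 in NPD is smaller than that of either gene alone, 0.38 for Tfrc 4357 and 0.36 for Ireb2. Among NPD rats both probes lay lower on the second slide, by 0.68 and 0.65, and this cancels in their difference. Neither probe showed such a drop among HPD rats.

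Tfrc minus Hfe was 1.17 higher in HPD (exact adjusted p = 0.0093), with 6 HPD rats above every NPD rat. Tfrc minus Slc40a1 was 0.77 higher (exact adjusted p = 0.023), with 7 of 7 HPD rats above the NPD mean. For these 3 genes the adjusted p stayed below 0.05 in all 17 alternatives run, with a highest value of 0.0497 for Slc40a1. The remaining comparisons did not pass. Tfrc was 0.38 higher relative to Slc11a2, 0.55 to Heph, 0.38 to Cybrd1, 0.50 to Fth1 and 0.54 to Aco1, with exact adjusted p-values from 0.158 to 0.504. Within slides Heph and Aco1 reached an exact adjusted p of 0.037 each, with differences of 0.66 and 0.65. There Fth1 reached 0.056 and Slc11a2 0.091, also below 0.1, while Cybrd1 did not pass (unadjusted exact p = 0.641).

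**Figure D3:**
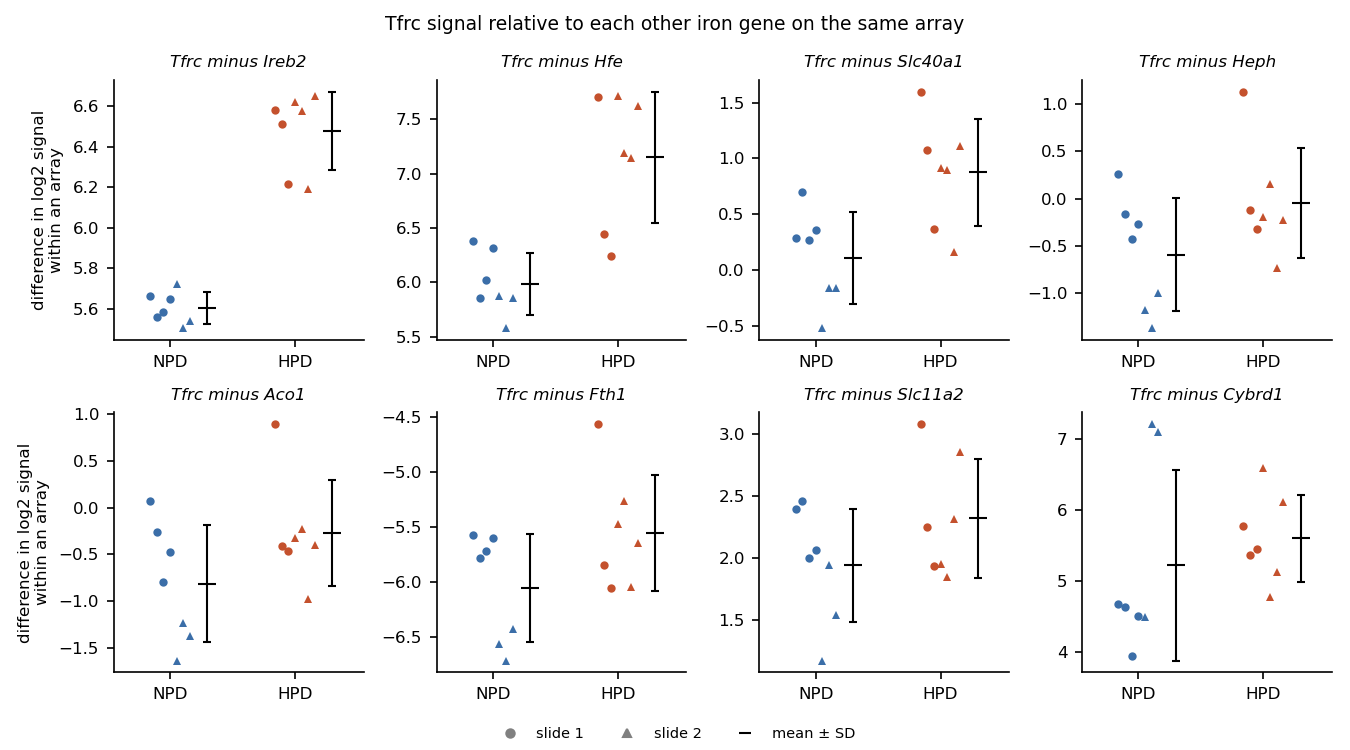
Log2 signal of Tfrc 4357 minus that of the brightest probe of each other iron gene on the same array (y axis, own scale in each panel) for NPD (blue) and HPD (orange) rats; circles and triangles are the first and second slide, bars mean ± SD of 7 rats. Only the shift between diets can be read, since levels of different probes are not comparable, and against Ireb2 it separates the groups completely (5.60 ± 0.08 and 6.48 ± 0.19).

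The other genes of iron metabolism showed no call. Of 75 genes listed, 70 were on the array, and none passed (0 of 70, against 0.056% of all probes). At an unadjusted limma p below 0.05 stood 4 higher and 7 lower, against 5.86% and 5.55% of all probes. By sign 40 of the 70 lay higher in HPD and 30 lower, while 64.2% of all probes lay higher. The counts by list below are to be read beside that same share. Their median difference was 0.09, beside 0.11 over all probes and 0.05 over probes well above background. The genes named next, apart from Hmox1 and Uros, were among those with the smallest unadjusted p of their list. Only genes well above background on all arrays of a group were considered. None of those named passed the adjusted threshold (limma, adjusted p 0.417 to 0.494).

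In the list for uptake and systemic control, 12 of 22 genes lay higher. Hamp, which encodes the hormone hepcidin that closes ferroportin, read -1.52 to -1.11 in NPD (median -1.43) and -1.18 to -0.70 in HPD (median -0.92). Its difference was 0.42 (SE 0.11; exact permutation p = 0.0012), with 7 of 7 HPD rats above the NPD mean. Slc48a1, a heme transporter, and Steap3, the endosomal ferrireductase that acts after transferrin uptake, differed by -0.26 (SE 0.14) and -0.21 (SE 0.12).

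Among 12 genes that handle iron inside the cell, 7 lay higher. Ncoa4, the receptor that takes ferritin to the lysosome for breakdown, read 1.12 to 1.61 in NPD (median 1.30) and 0.18 to 1.06 in HPD (median 0.87), without overlap. It differed by -0.55 (SE 0.14, adjusted p = 0.417; exact permutation p = 0.000583), and groups without overlap were found at 0.274% of all probes. Fbxl5, the iron-sensing subunit of the ligase that degrades Ireb2 protein, differed by -0.57 (SE 0.24; exact permutation p = 0.052). Slc25a37, the mitochondrial iron importer mitoferrin 1, differed by 0.29 (SE 0.14).

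In heme synthesis and breakdown 9 of 15 genes lay higher. Alas1, the first and rate-limiting enzyme of heme synthesis outside red cells, read 8.03 to 9.09 in NPD (median 8.67) and 8.84 to 10.1 in HPD (median 9.34). Its difference was 0.69 (SE 0.23), the largest upward one among the 70 genes, with an exact permutation p of 0.013 over all splits and 0.0016 within slides. Abcb6, a porphyrin transporter, differed by 0.27 (SE 0.10). Hmox1, the heme-degrading oxygenase, and Uros, an enzyme of heme synthesis, differed by -0.46 (SE 0.19) and -0.25 (SE 0.10). Hmox1 and Uros were chosen after their values were seen.

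Of 21 genes of iron-sulphur cluster assembly, 12 lay higher. Fam96a, of the cytosolic targeting machinery, differed by -0.67 (SE 0.28). Gfer, a sulfhydryl oxidase of the mitochondrial intermembrane space, differed by -0.36 (SE 0.12), with all 7 HPD rats below the NPD mean. Nfs1, the desulfurase that supplies the sulphur, differed by -0.38 (SE 0.23).

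**Figure D4:**
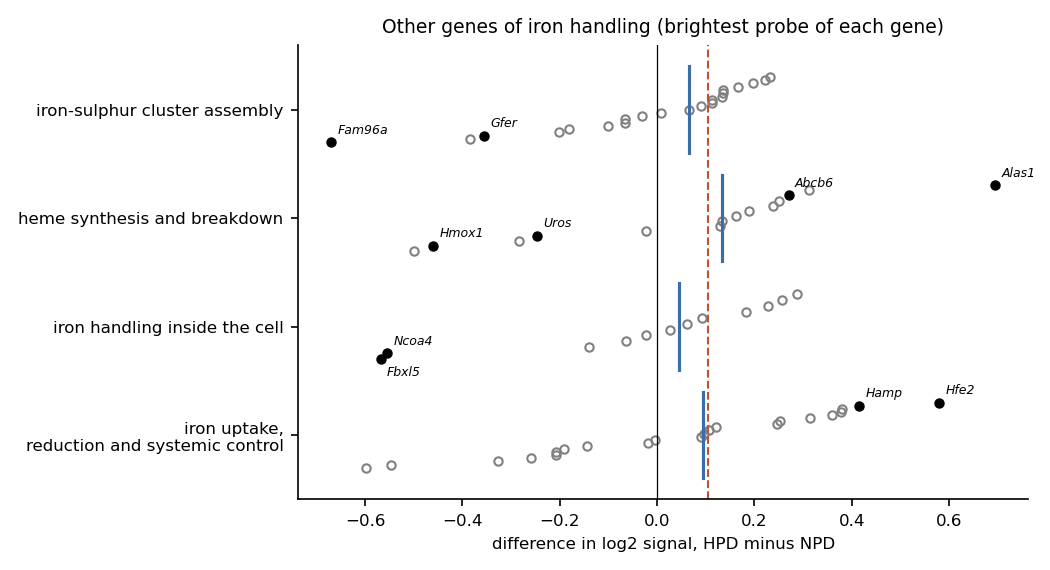
Difference in log2 signal, HPD minus NPD (x axis), of other genes of iron metabolism in 4 lists (y axis), each circle being the brightest probe of a gene (1 of the 70 genes is not shown); filled circles have an unadjusted limma p below 0.05, blue bars mark the list median, and the dashed line is the median of all probes, 0.11. No gene passed the adjusted threshold; Alas1 lies at 0.69 and Ncoa4 at -0.55, and Hfe2 was not well above background in NPD.

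Red cell precursors and dividing cells carry much transferrin receptor, so their markers were read beside it. The summed linear signal of 6 red cell genes, in units of each array's median, was 39.0 to 67.6 in NPD (median 46.7) and 47.6 to 174 in HPD (median 67.0), higher in HPD (exact permutation test on log2 sums, p = 0.017, within slides p = 0.017). Globin Hba-a2 made up 62.5% to 95.1% of the sum on the HPD arrays and 72.3% to 93.1% on the NPD arrays. Alone it differed by 0.52 (SE 0.17, limma adjusted p = 0.417; exact permutation p = 0.0035), with 6 HPD rats above every NPD rat. Without it the sum of the other 5 was 3.17 to 18.8 in NPD (median 6.22) and 2.47 to 65.1 in HPD (median 9.50), which did not pass (exact permutation p = 0.432). The highest full sums were those of HPD 2 (174) and HPD 1 (90.0), and the other 5 HPD rats lay between 47.6 and 69.8. Globins Hbb and Hbb-b1 differed by 0.08 (SE 1.15) and 0.41 (SE 0.79), and the red cell gene Ahsp by 0.28 (SE 0.22). Alas2, the red cell form of Alas1, differed by 0.09 and was well above background on only 4 NPD and 3 HPD arrays. The red cell membrane gene Epb42 was not well above background on any array. By sign all 6 red cell genes lay higher in HPD, as did 64.2% of all probes. The sum of 7 cycling cell genes was 133 to 239 in NPD (median 192) and 131 to 271 in HPD (median 189; exact permutation p = 0.742). Of these 7 genes 4 lay higher and 3 lower, from -0.68 at Top2a (SE 0.27, limma adjusted p = 0.417) to 0.25 at Birc5. The part of either cell type in the Tfrc difference was not tested.

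The summed markers of goblet cells (6 genes), white blood cells (8 genes, Cd163 not well above background on any array) and stroma (7 genes) differed by -0.27, 0.09 and -0.18 on the log2 scale, with exact permutation p-values of 0.175, 0.610 and 0.337. The absorptive colonocyte sum differed by 0.08 (exact permutation p = 0.444). Such sums follow the brightest genes of a list, and no single gene was called. At an unadjusted limma p below 0.05 stood Agr2 (-0.63) and Clca1 (-0.56) of goblet cells and Itgam (0.34) of white blood cells. Of stroma so did Col1a1 (0.35), Myh11 (-0.48) and Col3a1 (0.61, not well above background in NPD). By sign 2 goblet cell genes lay higher and 4 lower, and 3 stroma genes higher and 4 lower.

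After removal of diet and slide means, the probes whose values followed Tfrc 4357 most closely over the 14 arrays, out of 12141 named and measured candidates, were Gfpt1 (r = 0.93), Mob1b (0.92), Dlg3 (0.92), Serpinb6a (0.91) and Lemd3 (0.91). The rats, slides and array constants are shared by all of these values, and the genes were picked for their correlation. None of the 5 passed the test between diets (differences -0.21 to -0.02, adjusted p 0.588 to 0.948).

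The letters of the iron-responsive element, a C, 5 bases of any kind and the loop CAGTGN, were searched on both strands (RefSeq, build GRCr8). Promoter windows ran from 250 bases before to 50 after a start position. For Aco1 and Tfrc that position was the outermost start of the gene. For Cybrd1, Slc11a2, Ireb2, Slc40a1 and Heph it lay inside the gene, at Heph in the window 65308806-65309105 with the gene starting at 65160628. None of the 8 windows held for 7 iron genes (Cybrd1, Aco1, Slc11a2, Ireb2, Slc40a1, Tfrc and Heph) contained them. No window was held for Fth1, Ftl1 or Hfe. Of all 33469 windows 9.39% contained them on the gene's strand and 9.61% on the other, shares too small to be judged from 8 windows. At most the first 50 bases after each such start are covered, so this says nothing of the rest of the mRNA or of other starts.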

How the data were processed

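Isolated colonocyte RNA of 14 rats was measured on single-colour Agilent arrays. The authors deposited the scanner output as intensity values (Agilent Feature Extraction 10.7.3.1: background-subtracted processed signal, mean and median pixel signal), not normalized between arrays. They also deposited a normalized table in log2 units, 1 row per gene name, which matched the centred log2 median pixel signal to within 0.001 for all values of 26261 names. The scanner files were used here, with the table as an alternative.

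Flagged outlier spots were left out, log2 processed signals averaged per probe and each array centred on its median over probes. As in the study's methods, limma 3.58.1 (R 4.3.3) fitted diet alone, with empirical Bayes and Benjamini-Hochberg adjustment over 30367 probes at q below 0.1. Single values were tested by two-sided exact permutation over 1716 splits, or 1225 within slides (smallest p 0.000583 and 0.000816). The fit was tested on simulated data: of probes changed by 1 on the log2 scale 61.2% were recovered, and by 0.5, 19.4% (30330 probes). Of 134 probes called there, 16 were unchanged ones. The simulated noise was independent between probes, without slide or shared array shifts, and the data gave only 17 calls. These shares therefore need not hold for the data.

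The iron genes and lists were chosen with earlier results of these data known. All probes of the 10 genes are named, the brightest standing for a gene in comparisons between genes; of each list the 3 genes of smallest p, well above background in a group, are named, except 1 gene that is not reported here. Slides were read from the array headers. Array number limits precision. Alternatives covered signal column, background correction (normexp, offset 50), centring, normalization, filter, slide and replicate blocks, variance trend and each array left out. Replicate numbers were not taken to pair the rats, since not every same-numbered pair correlated over 0.1.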

Additional observations from a re-analysis of the deposited data

How the results depend on the processing

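Tfrc 2139 was higher in HPD in all 29 alternatives run (0.73 to 1.11) and called in 22. It was not called with a replicate block (1.02, adjusted p = 0.178) or without any 1 of 6 rats (difference 0.95 to 1.11 over all rats omitted), so 0 to 1 iron genes and 0 to 1 iron probes were called with 1 rat omitted. No iron gene was called (0) with the replicate block, in the deposited table, by the brightest probe alone or by the mean of a gene's probes. With the replicate block in the fit of the processed signal 0 iron probes were called. Under normexp 2 were called, also with slide as a block (2). The second was Tfrc 4357, with 0.62 (adjusted p = 0.094) and 0.69 (0.047), and the authors' table blocked on slide, 1 row per gene, gave the gene Tfrc 0.74 (0.043). Over all probes the count of 17 became 5142 under normexp, 27 with slide as a block, 8 with the replicate block, 8479 with normexp and slide, 2767 in the deposited table with slide, 40 with cyclic loess and slide, and 9 to 151 with 1 rat omitted. Of these called probes 5246 were higher in HPD with normexp and slide, 1050 in the deposited table with slide, 26 with cyclic loess and slide, 23 with slide as a block, and 65 of 151 without HPD 1. The combinations with slide, and centring on the spots' median, were added after seeing the data. Same-numbered NPD and HPD rats correlated over 0.1 in 6 of 7 pairs, and 4 correlated best with their own number.

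The list counts, 0 otherwise, became 2 for uptake, 2 for handling inside the cell, 3 for heme and 4 for iron-sulphur assembly under normexp, then 6, 3, 5 and 6 with normexp and slide. In the deposited table with slide they were 3 for handling, 4 for heme and 4 for iron-sulphur, and with cyclic loess and slide 1 for heme.

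Signs turned for Slc11a2 1764 under normexp (-0.00578) and normexp with slide (-0.00995). Slc40a1 2035 turned to -0.0867 (mean pixel), -0.0819 (median pixel), -0.13 (normexp), -0.0535 (mean centring), -0.0456 (quantile), -0.0219 (cyclic loess), -0.00104 (slide), -0.13 (normexp and slide) and -0.0124 (cyclic loess and slide), and spanned -0.0493 to 0.11 with 1 rat omitted. The gene rows of the authors' table, which mix the probes of a gene, gave Slc40a1 -0.303, and -0.26 with slide. Hfe 475 turned to 0.13 (mean pixel), 0.14 (median pixel), 0.14 (normexp), 0.0745 (normexp and slide) and 0.0157 (centring on spots), and spanned -0.24 to 0.16 with 1 rat omitted. Abcb6 was at -0.0281 in its gene row of the deposited table and Ftl turned to -0.0380 under quantile normalization. Within slides, Tfrc minus Heph (0.66) and Tfrc minus Aco1 (0.65) fell below an adjusted p of 0.05 in the exact test. Tfrc minus Fth1 (adjusted p = 0.056) and Tfrc minus Slc11a2 (adjusted p = 0.091) fell below 0.1 in that test. The causes were not tested.

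Signal over background limits Hfe 475, and the number of arrays limits small differences.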
